A study of Homo sapiens with 6 samples.

Results

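The S100 calcium-binding proteins were followed as 10 genes, S100A2, S100A3, S100A4, S100A6, S100A8, S100A10, S100A11, S100A13, S100A16 and S100B. Their members are the probe sets that the platform's table assigns to exactly 1 of these symbols, which gave 15 probe sets out of the 41091 with a single gene symbol. S100A6, S100A8, S100A10, S100A13 and S100B each had more than 1 probe set. The rule goes by gene name and uses no measured value, although the 10 names were picked with earlier results of these data known. Messenger RNA came from 2 cybrids, cells made by fusing an enucleated mitochondrial donor with the osteosarcoma line 143B after removal of its mitochondrial DNA. The 10A/143B cybrid carried mitochondria of MCF10A, a line of non-cancerous breast epithelium. The 468/143B cybrid carried mitochondria of MDA-MB-468, a metastatic breast cancer line. Both have the 143B nucleus, both were selected in bromodeoxyuridine without uridine, and each was put on 3 arrays. The labels describe a triplicate extraction and an input of 5 µg of RNA. The sample annotation names the mitochondrial donor as the cell line, and the labels do not say whether a cybrid was 1 clone or a pool. Separate cultures are not stated either, so the p-values reflect the spread between 3 arrays of a kind, and that spread may be technical.

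S100 proteins are small vertebrate proteins with a pair of EF-hands, the helix-loop-helix fold that holds calcium. Most form dimers, and calcium binding exposes a surface that grips partner proteins such as annexins and myosin. Several members are also released from cells and then act on receptors such as RAGE. Most of the genes lie in a cluster on chromosome 1 beside the genes of the epidermal cornified layer, while S100B lies on chromosome 21. In carcinomas and sarcomas the family is best known through S100A4, which is tied to cell motility and metastasis.

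The stretches just before the start sites of 5 members are shown, all among the genes with differences described next. They are S100A4, S100A6, S100A10 and S100A11, whose main probe sets were lower in 10A/143B, and S100A2, which was higher. S100A13 and S100A16, which also differed, are not shown. Each line gives the 250 bases before a RefSeq start (GRCh38.p14), read 5′ to 3′ on the gene's own strand, with capitals for the motifs searched on both strands. The motifs were the TATA box TATAAA, the GC box GGGCGG, the AP-1 site TGANTCA and the CCAAT box CCAAT, and the adjoining GC boxes of S100A6 overlap.
S100A4, chr1:153545807-153546056, minus strand: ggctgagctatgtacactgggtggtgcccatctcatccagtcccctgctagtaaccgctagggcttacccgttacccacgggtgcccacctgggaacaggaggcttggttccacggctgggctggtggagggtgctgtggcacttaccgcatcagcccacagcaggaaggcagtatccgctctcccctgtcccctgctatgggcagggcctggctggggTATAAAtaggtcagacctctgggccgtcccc
S100A6, chr1:153535992-153536241, minus strand: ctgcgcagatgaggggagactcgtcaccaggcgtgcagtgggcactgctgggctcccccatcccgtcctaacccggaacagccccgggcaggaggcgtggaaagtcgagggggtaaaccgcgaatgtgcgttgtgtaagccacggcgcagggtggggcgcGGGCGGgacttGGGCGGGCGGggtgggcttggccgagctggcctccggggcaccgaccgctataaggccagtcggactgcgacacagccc
S100A10, chr1:151993860-151994109, minus strand: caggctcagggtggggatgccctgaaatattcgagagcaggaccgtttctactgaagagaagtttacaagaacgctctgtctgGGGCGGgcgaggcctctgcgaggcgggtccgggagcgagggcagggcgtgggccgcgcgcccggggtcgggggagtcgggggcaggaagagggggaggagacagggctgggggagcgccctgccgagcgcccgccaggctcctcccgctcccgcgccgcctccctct
S100A11, chr1:152037005-152037254, minus strand: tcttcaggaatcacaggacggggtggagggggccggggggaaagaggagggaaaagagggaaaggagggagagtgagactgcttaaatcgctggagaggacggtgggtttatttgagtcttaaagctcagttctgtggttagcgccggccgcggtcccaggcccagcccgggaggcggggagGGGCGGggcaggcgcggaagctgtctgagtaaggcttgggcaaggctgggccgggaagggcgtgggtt
S100A2, chr1:153565845-153566094, minus strand: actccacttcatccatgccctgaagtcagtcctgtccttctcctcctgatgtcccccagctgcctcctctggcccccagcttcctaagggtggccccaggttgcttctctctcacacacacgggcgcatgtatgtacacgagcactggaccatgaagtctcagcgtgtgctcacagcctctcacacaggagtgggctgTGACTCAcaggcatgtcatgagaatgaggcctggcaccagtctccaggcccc

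The S100A4 window holds a TATA box that begins 31 bases before the start and no GC box. S100A6 holds 3 GC boxes and a GC content of 70.0%, S100A10 1 GC box at 71.2% GC, and S100A11 1 GC box at 63.6% GC. The S100A2 window shown holds an AP-1 site 52 bases before its start, and the window of its other annotated start holds none of the 4 motifs. Among all 35116 windows of this length, 10.7% hold TATAAA, 42.6% GGGCGG, 6.57% TGANTCA and 32.0% CCAAT. Windows were matched for 9 of the 10 genes, all but S100B. A match describes letters only, and the arrays do not measure promoter use.

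Of the 15 probe sets, 8 passed an adjusted p of 0.05 in limma's fit to 6 arrays, 3 higher and 5 lower in 10A/143B. Over all 41091 probe sets 31.0% passed, 18.6% higher and 12.4% lower. S100A4, S100A6, S100A11 and S100A13 were lower, S100A2 and S100A16 were higher, and S100A10 passed in opposite directions on its 2 probe sets. S100A3, S100A8 and S100B did not pass. Replicates 2 and 3 of each cybrid were much more alike than either was to replicate 1: over the 8172 probe sets brighter than 8 on the log2 scale, the SD of their differences was 0.08 (10A/143B) and 0.09 (468/143B), against 0.26 to 0.28 for pairs with replicate 1. Whether replicates 2 and 3 of a cybrid share an extract or a culture is not settled by the labels. The fit was therefore repeated with replicates 2 and 3 averaged to 1 sample, called the averaged fit here. In it 3 of the 15 probe sets passed, those of S100A11, S100A13 and the dim one of S100A10, 1 higher and 2 lower, while 17.9% of all probe sets did (11.7% higher, 6.14% lower). That share is near the background, so the number of calls does not set these genes apart. Of the 10 member probe sets whose mean log2 level reached 5.51, the median over the whole table, 7 passed on 6 arrays and 2 in the averaged fit. Among all probe sets that reached it, 53.3% and 33.3% passed. The arrays of the cybrids were free of overlap for 10 of the 15 member probe sets, beside 42.8% of all. The median difference of the 15 was -0.17, against 0.0033 over all probe sets. Median centring moved that overall median to -0.10, and the calls higher in 10A/143B from 60.1% to 50.0% of all calls.

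**Figure D1:**
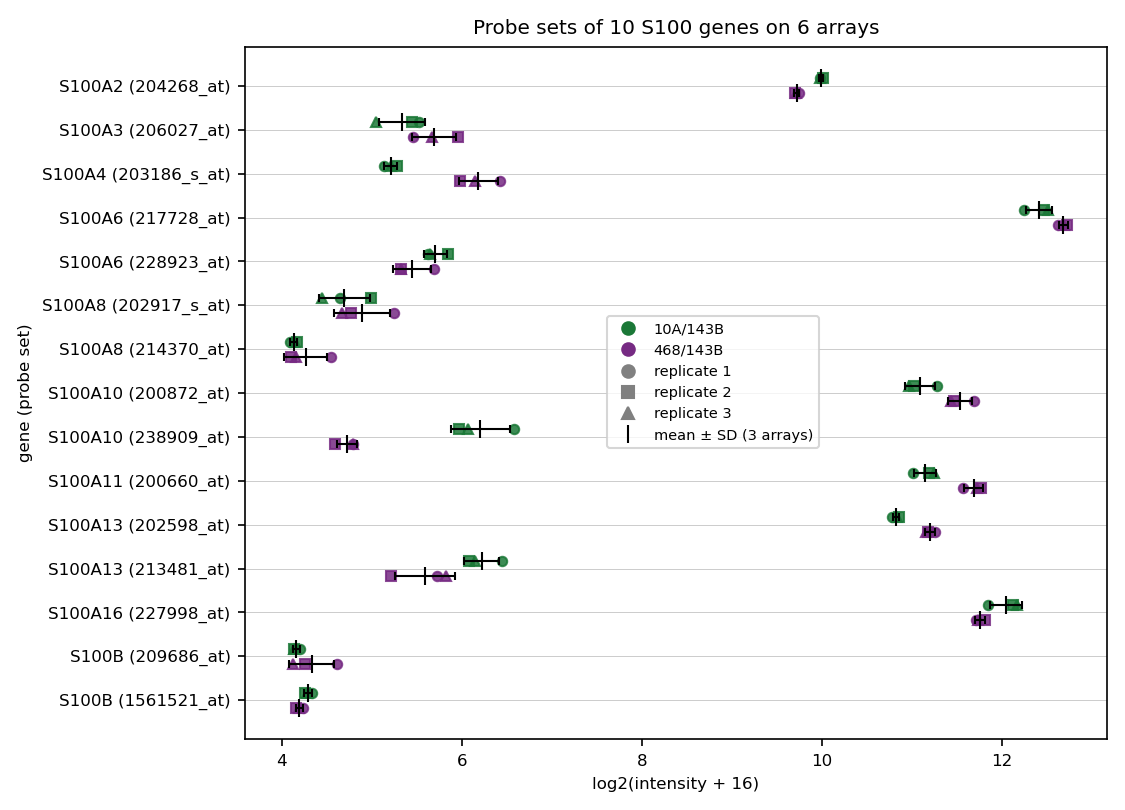
Log2(intensity + 16) of the 15 probe sets of 10 S100 genes, with 1 point per array (10A/143B in green, 468/143B in purple, shapes for replicates) and bars of mean ± SD. For 10 of the 15 probe sets all points of a cybrid lie on one side of the other's, among them S100A11 at 11.15 ± 0.12 against 11.69 ± 0.11.

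S100A4 showed the largest decrease. This calcium sensor binds nonmuscle myosin and promotes cell motility. In the order of replicates 1, 2 and 3, as in all such sentences here, its intensities were 19.03, 22.94 and 20.97 in 10A/143B and 69.55, 47.18 and 54.95 in 468/143B. All arrays of 10A/143B lay below all arrays of 468/143B. The log2 level was 5.21 ± 0.08 against 6.18 ± 0.22 (SD, n = 3), a 1.97-fold lower level (difference -0.98 ± 0.19, SE, adjusted p = 0.00451). In the averaged fit the difference was -1.05 and the adjusted p 0.0504, so it did not pass there. In RNA of whole cultures, fewer cells making a transcript and less of it per cell cannot be told apart. The probe set's values in 10A/143B lay near the arrays' median intensities of 20.4 to 24.4, and its _s_at suffix marks probes shared by several transcripts. MYH9, the nonmuscle myosin heavy chain that S100A4 binds, was also lower, with intensities of 903.9, 916.5 and 955.4 against 1380, 1607 and 1541. Its difference was -0.69 ± 0.07 (SE, adjusted p = 1.71e-04, and 0.0078 in the averaged fit).

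S100A11, a partner of annexin A1 that takes part in membrane repair and growth control, was lower in 10A/143B in both fits. Its intensities were 2048, 2320 and 2402 in 10A/143B and 3019, 3468 and 3373 in 468/143B, again without overlap. The level was 1.45-fold lower, with a difference of -0.54 ± 0.08 (SE, adjusted p = 0.0011, and 0.0185 averaged). The same-numbered arrays gave differences of -0.56, -0.58 and -0.49. Over 17 alternative settings the difference ran from -0.64 to -0.47 and passed in each. ANXA1, the annexin that S100A11 binds, differed by -0.50 ± 0.06 (adjusted p = 2.37e-04, and 0.0167 averaged), with intensities of 982.3, 1003 and 989.1 against 1380, 1409 and 1428.

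S100A13, which helps to export IL1A and FGF1 from cells without a signal peptide, was lower on its bright probe set. Its intensities were 1746, 1833 and 1808 in 10A/143B and 2435, 2304 and 2257 in 468/143B. The groups did not overlap, and the difference of -0.37 ± 0.06 (SE) passed in both fits (adjusted p = 0.0012, and 0.0322 averaged). The dimmer probe set, 213481_at, stood at 71.0, 51.6 and 54.6 against 37.0, 21.1 and 40.8. Its difference had the opposite sign, 0.63 ± 0.22, and did not pass (adjusted p = 0.0629). It passed in 4 of 16 alternative settings, among them the replicate number as a block (adjusted p = 0.0398). It did not pass in the averaged fit (adjusted p = 0.189), after quantile normalization (adjusted p = 0.192) or with any 1 array left out (adjusted p = 0.0728 to 0.179). IL1A itself, the cytokine, was 6.22-fold higher in 10A/143B, at 218.3, 191.3 and 182.3 against 18.25, 17.03 and 19.43 (difference 2.64 ± 0.15, adjusted p = 1.13e-05, and 0.00123 averaged). Its other probe set gave 2.27. FGF1, the other cargo, differed by -0.05 ± 0.24 (adjusted p = 0.90).

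S100A10 gave opposite answers on its probe sets. It is the family member whose loops no longer bind calcium, and with annexin A2 it forms a tetramer that docks plasminogen and its activator at the cell surface. On the bright probe set, 200872_at, intensities were 2469, 2062 and 1978 in 10A/143B and 3281, 2817 and 2759 in 468/143B. Replicate 1 was the highest in each cybrid, and the cybrids did not overlap. This gave a difference of -0.44 ± 0.10 (SE, adjusted p = 0.00968), which did not pass in the averaged fit (adjusted p = 0.0693). The call held in 16 of 17 alternative settings, among them the replicate number as a block (adjusted p = 6.16e-04). On 238909_at intensities were 79.3, 46.5 and 50.9 against 11.7, 8.11 and 11.6, so that 10A/143B was higher by 1.48 ± 0.22 (adjusted p = 0.00104, and 0.0157 averaged). The averaged fit was thus the only setting in which the call on 200872_at was lost. The call on 238909_at held in all of its 15 settings, the averaged fit included. The 468/143B values of 238909_at lay below the arrays' median intensities. S100A10 as a gene has no settled direction here.

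The partners of S100A10 also differed among themselves. ANXA2, the annexin of its tetramer, had intensities of 7281, 7332 and 7486 against 6654, 6985 and 6794, and its difference of 0.11 ± 0.05 (SE) did not pass (adjusted p = 0.106). Its other bright probe sets gave 0.16 and 0.17 and passed on 6 arrays (adjusted p = 0.0369 and 0.0249), but not in the averaged fit (adjusted p = 0.277 and 0.267). All of these bright probe sets, the first included, carry the _x_at suffix of probes shared with related transcripts. The dim probe set 1568126_at gave -0.40 and did not pass (adjusted p = 0.185). AHNAK, the giant scaffold that the tetramer binds, differed by 0.11 ± 0.06 (adjusted p = 0.213). PLAT, tissue plasminogen activator, was 4.65-fold lower in 10A/143B, at 83.9, 101.8 and 87.4 against 491.1, 467.9 and 481.0 (-2.22 ± 0.10, adjusted p = 6.75e-06, and 8.45e-04 averaged).

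S100A6, or calcyclin, which is common in proliferating cells and fibroblasts, was slightly lower on its bright probe set, 217728_at. Its intensities were 4837, 5634 and 5833 in 10A/143B and 6295, 6747 and 6608 in 468/143B. The cybrids did not overlap, and the fold was 1.21 (-0.27 ± 0.08, SE, adjusted p = 0.0252, but 0.117 averaged). The call was also lost without replicate 2 of 10A/143B (adjusted p = 0.0511) as well as without 468/143B replicate 2, where it was 0.101 as an adjusted p, or replicate 3, where the adjusted p was 0.0925. The dim probe set 228923_at overlapped, at 33.1, 41.6 and 34.1 against 35.5, 23.9 and 24.1, with a difference of 0.26 ± 0.19 (adjusted p = 0.375). CACYBP, the calcyclin-binding adaptor, differed by -0.04 ± 0.08 (adjusted p = 0.779).

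S100A2 and S100A16 were higher in 10A/143B on 6 arrays. S100A2, a p53 target and a marker of basal epithelium, had intensities of 996.0, 1017 and 989.1 in 10A/143B and 843.4, 814.6 and 820.3 in 468/143B. The difference of 0.27 ± 0.06 (SE, 1.21-fold, adjusted p = 0.00778) was larger than the spread within either cybrid, whose SDs were 0.02 and 0.03. It did not pass in the averaged fit (adjusted p = 0.154), and median centring brought it to 0.17 (adjusted p = 0.128). S100A16, a widely expressed member, stood at 3666, 4451 and 4576 against 3327, 3591 and 3397. Here replicate 1 of 10A/143B lay close to replicate 2 of 468/143B, and the same-numbered arrays differed by 0.14, 0.31 and 0.43. The difference of 0.29 ± 0.09 passed on 6 arrays (adjusted p = 0.0340), but not averaged (adjusted p = 0.220). It also failed when replicate 2 or 3 of 10A/143B was left out (adjusted p = 0.128 and 0.124), and without replicate 1, 2 or 3 of 468/143B (adjusted p = 0.0990, 0.0673 and 0.111).

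**Figure D2:**
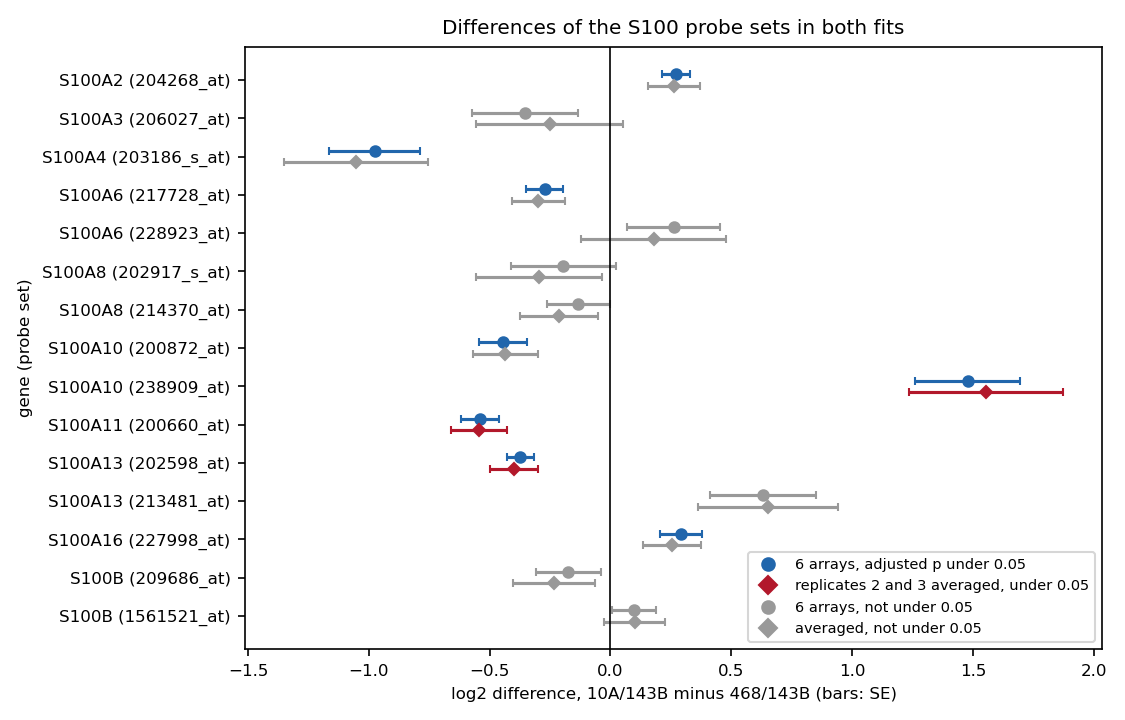
Log2 differences of the 15 probe sets (10A/143B minus 468/143B, bars for SE) in the fit to 6 arrays (circles) and with replicates 2 and 3 averaged (diamonds), coloured where the adjusted p was under 0.05 and grey otherwise. S100A11, S100A13 and the dim probe set 238909_at of S100A10 are coloured in both fits, and S100A4, at -0.98 and -1.05, in the first only.

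The members of inflammatory cells and of nerve and glia were dim. S100A8, a subunit of the neutrophil protein calprotectin, had intensities of 9.0005, 15.89 and 5.736 against 21.86, 11.16 and 9.318 on 202917_s_at, with overlap (-0.20 ± 0.22, SE, adjusted p = 0.569). On 214370_at its intensities lay between 1.00, the lowest value on the arrays, and 7.26. S100B, known from glia and melanocytes, lay between 1.43 and 8.46 on 209686_at and between 1.85 and 4.20 on 1561521_at, with adjusted p of 0.403 and 0.494. On 1561521_at the arrays did not overlap, yet the difference was 0.10 ± 0.09. S100A3, a member abundant in hair cuticle, had intensities of 29.86, 27.67 and 17.03 against 28.1, 45.9 and 34.8 and overlapped as well (-0.36 ± 0.22, adjusted p = 0.282). No detection calls were used here, so these low values cannot be called background.

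Few of the other family members passed. Of 15 measured relatives, S100 genes outside the 10 and the S100-fused genes of the cornified layer, 2 were higher and 1 lower, beside 34.5% of all 19775 genes with 1 probe set each (19.3% higher, 15.2% lower). Only 1 of the 15 reached the median level of all probe sets, so the share of all genes is not a like comparison. At or above that level 53.3% of probe sets passed, beside 31.0% of all probe sets. In the averaged limma fit 0 passed and 2 had an unadjusted p under 0.05, beside 20.4% of all genes called (12.7% higher, 7.74% lower). The count of 3 fell to 0 without replicate 2 of either cybrid, and to 1 without replicate 3 of 10A/143B or without replicate 1 or 3 of 468/143B. S100A14, an epithelial member, had intensities of 6.23, 9.19 and 11.6 against 35.8, 27.3 and 16.3 (-0.74 ± 0.22, SE, adjusted p = 0.0306, and 0.0842 averaged). S100A7A, a psoriasis-linked member, was called higher, at 43.1, 410.1 and 245.6 in 10A/143B and 32.0, 13.7 and 50.2 in 468/143B (2.04 ± 0.66, adjusted p = 0.0464, but 0.184 averaged). The cybrids overlapped, since replicate 1 of 10A/143B lay below replicate 3 of 468/143B, and the other probe set of S100A7A gave 0.08. CRNN, the cornified-layer gene cornulin, was the other called higher and differed by 0.43 ± 0.12 (adjusted p = 0.0259, and 0.131 averaged). It was dim, at 9.65, 11.9 and 7.84 against 3.81, 2.46 and 3.07, all below the arrays' median intensities. S100A9, the partner of S100A8 in calprotectin, had intensities between 3.506 and 12.996 (-0.33 ± 0.14, adjusted p = 0.119). S100A1, the heart and muscle member, and S100P, a placental one, did not pass (adjusted p = 0.601 and 0.491).

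Among binding partners and receptors, 8 of 43 measured genes were higher and 18 lower in 10A/143B, with a median difference of -0.26 against -0.02 over all genes. These calls make up 60.5% of the list, beside 34.5% of all genes, and 35 of the 43 reached the median level, 8 of them called higher and 17 lower, where 53.3% of all probe sets passed. In the averaged fit 6 were higher and 8 lower, beside 20.4% of all genes (12.7% higher, 7.74% lower). At or above the median level 33.3% of all probe sets passed in that fit. Besides IL1A and PLAT, the largest differences were those of MDM2 and BSG. MDM2, the ubiquitin ligase of p53 that S100 proteins can bind, was higher by 1.47 ± 0.14 (SE, adjusted p = 9.57e-05), with intensities of 588.1, 694.6 and 675.6 against 272.5, 184.8 and 227.5. BSG, or basigin, a receptor for secreted S100A8 and S100A9, was lower by 1.13 ± 0.10 (adjusted p = 7.29e-05), with 891.4, 1031 and 1144 against 2452, 2150 and 2135. AGER, which encodes RAGE, stood between 7.67 and 32.2 and did not pass (-0.54 ± 0.22, adjusted p = 0.105). Of 48 other EF-hand genes, 11 were higher and 14 lower, with a median of -0.09 (6 and 9 averaged). That is 52.1% of this list, beside the 34.5% of all genes, and all of these calls were among the 41 genes that reached the median level. The largest differences were those of MYL9, a smooth muscle myosin light chain (-2.28 ± 0.18), RCN3, a chaperone of the endoplasmic reticulum (-1.40 ± 0.13), PLS1, an actin-bundling plastin (1.29 ± 0.10), and EFHD1, a mitochondrial protein (-1.23 ± 0.39, adjusted p = 0.0461, but 0.175 averaged).

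**Figure D3:**
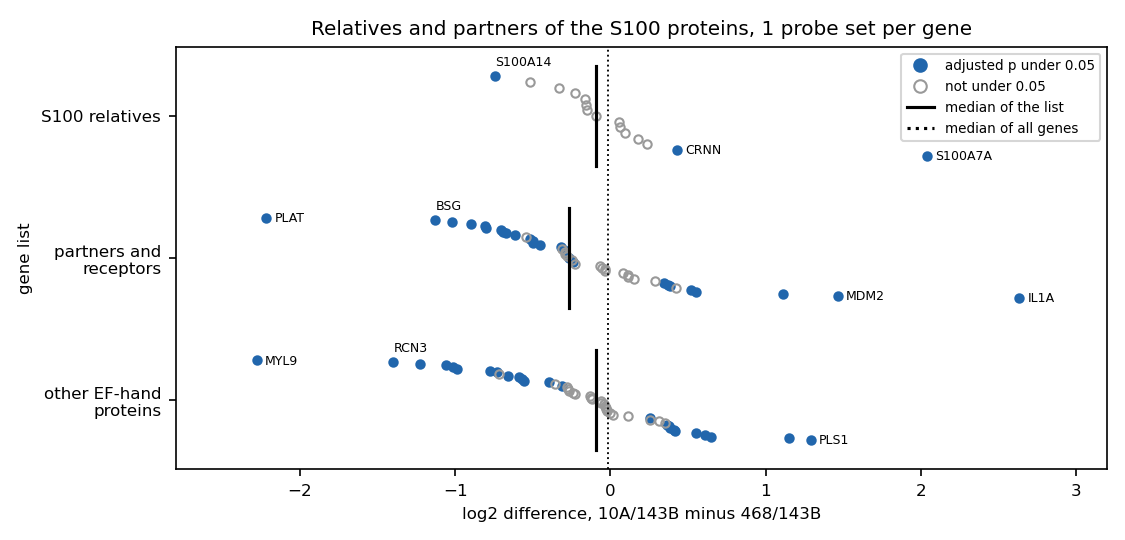
Log2 differences (10A/143B minus 468/143B), 1 probe set per gene, of 15 S100 relatives, 43 partners and receptors and 48 other EF-hand genes, filled where the adjusted p on 6 arrays was under 0.05, with the median of each list (bar) and of all genes (dotted line). The partners spread from PLAT at -2.22 to IL1A at 2.64, and their median of -0.26 lies below that of all genes at -0.02.

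The chromosome neighbourhood was described with 1 probe set per gene. In the RefSeq order of chromosome 1, 64 measured genes lay between S100A10 and S100A1 or within 20 genes on either side, S100 and S100-fused genes left out. Of these, 6 were higher and 10 lower in 10A/143B, with a median of -0.11 (3 and 4 averaged). That is 25.0% of the list, beside 34.5% of all genes (19.3% higher, 15.2% lower). In the averaged fit 20.4% of all genes passed. The total of 16 was 10 without 10A/143B replicate 2 and also without 468/143B replicate 3. The 24 genes inside the stretch, mostly of the cornified layer, included 0 past limma's threshold on 6 arrays or averaged (1 and 0 with an unadjusted p under 0.05), and 4 of them reached the median level of all probe sets, against 31 of the 40 outside it. TUFT1, or tuftelin, first known from tooth enamel, was lower by 1.91 ± 0.07 (SE, adjusted p = 5.42e-06), at 321.8, 324.0 and 340.1 against 1269, 1323 and 1252. ZNF687-AS1 differed by -1.003 ± 0.135 and DENND4B by 0.99 ± 0.22 (adjusted p = 6.45e-04 and 0.00982). In the averaged fit ZNF687-AS1 passed (adjusted p = 0.0223) and DENND4B did not (adjusted p = 0.0550). THEM4, a thioesterase gene just before S100A10 in this order, was lower by 1.01 ± 0.10 on the probe set used, but its other probe sets passed the opposite way on 6 arrays. Around S100B on chromosome 21, 5 of 21 genes were higher and 7 lower (3 and 4 averaged). Only PRMT2 of these lay after S100B in the order, and the others lay before it. That is 57.1% of the list, beside 34.5% of all genes. Of the 21, 17 reached the median level, where 53.3% of all probe sets passed. Among those called were the collagen gene COL6A2 (-1.84 ± 0.27), LINC00205 (1.23 ± 0.17), SPATC1L (-1.13 ± 0.08) and C21orf58 (1.12 ± 0.26). The other probe sets of C21orf58 did not pass, with differences from -0.29 to 0.90. LINC00205 gave 0.25 on 1552819_at (adjusted p = 0.465).

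**Figure D4:**
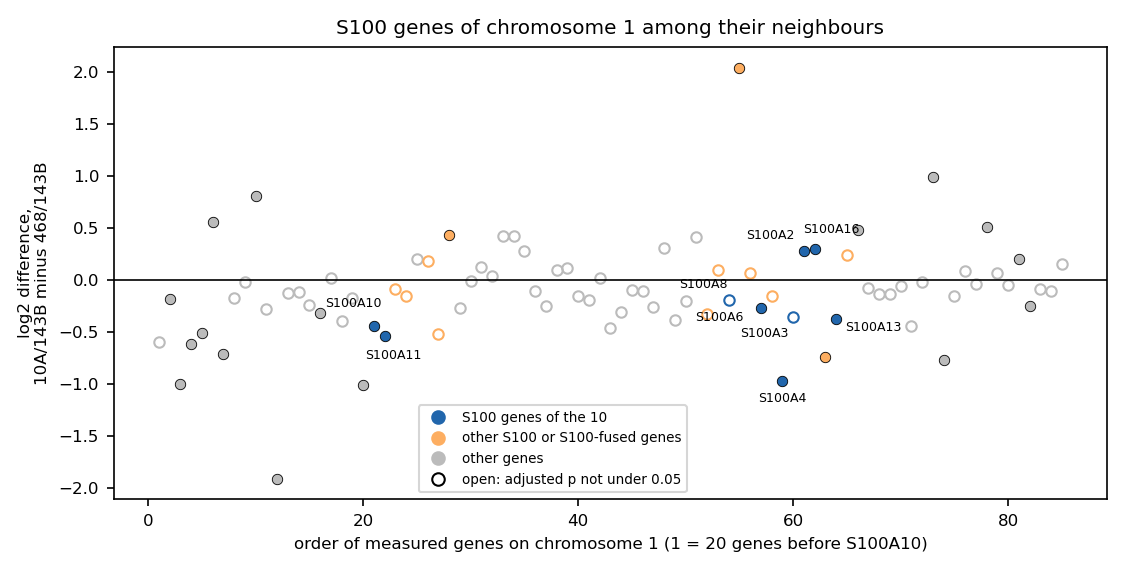
Log2 difference (10A/143B minus 468/143B) of measured genes in their order on chromosome 1, 1 probe set per gene, with the S100 genes of the 10 in blue, other S100 or S100-fused genes in orange and other genes in grey, open where the adjusted p was not under 0.05. S100A2 and S100A16 lie above 0 and S100A4, S100A6, S100A10, S100A11 and S100A13 below it, and the grey genes between S100A11 and S100A9 are all open.

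S100A2, S100A14 and S100A16 are common in epithelium, so markers of the donor epithelia were read beside them. Of 14 measured epithelial markers, limma called 5 lower and 0 higher in 10A/143B (2 higher with an unadjusted p under 0.05), namely the keratins KRT8 (-1.05 ± 0.13, SE), KRT18 and KRT19 (-0.67 ± 0.16), SFN, also called stratifin (-0.99 ± 0.17), and the claudin CLDN7 (-0.71 ± 0.19). This is 35.7% of the list, near the 34.5% of all genes. The averaged fit kept 3 of them, without KRT19 and CLDN7 (adjusted p = 0.0675 and 0.0537). KRT19 and CLDN7 were dim, with mean intensities of 3.24 and 3.35 in 10A/143B and 14.9 and 15.4 in 468/143B. On its other probe set, 228491_at, KRT19 overlapped and did not pass on 6 arrays (adjusted p = 0.224). The summed intensity of all 14 measured epithelial markers, called or not, ran from 5816 to 6557 in 10A/143B and from 7248 to 8092 in 468/143B. KRT5, the basal keratin, stood at the lowest value of 1 on every 10A/143B array and was not among those called. Of 11 markers of osteoblasts and mesenchyme 1 was higher, SPP1 (0.62 ± 0.11), and 3 were lower, TWIST1 (-1.345 ± 0.168), SPARC (-0.66 ± 0.06) and RUNX2 (-0.23 ± 0.07). RUNX2 did not pass in the averaged fit (adjusted p = 0.274), and the other 3 did. Summed intensities of this list were 11783 to 12380 in 10A/143B and 12554 to 13842 in 468/143B. Of 10 blood and endothelial markers 1 was higher, PECAM1 (0.42 ± 0.13), on 6 arrays but not in the averaged fit (adjusted p = 0.184). The other 4 probe sets of PECAM1 were dim and did not pass, with differences from -0.25 to 0.18. The part of these markers in the S100 differences was not tested.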

How the data were processed

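Total RNA of 3 arrays per cybrid was labelled with biotin and hybridised by the Affymetrix protocol, per the labels' protocols. The deposited values are probe set intensities on a linear scale. How the authors summarised, background-corrected or scaled them is not given in the sources used here. Groups and replicate numbers came from the source names. Of 54675 probe sets, 41091 had 1 symbol in the platform's table and were no controls, and 41037 of these were matched to RefSeq (GRCh38.p14) by Entrez identifier.

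Values were used as log2(intensity + 16) without further scaling, so fold changes of dim genes are understated. All were fitted together with limma 3.58.1 in R 4.3.3 (lmFit, eBayes with an intensity trend, Benjamini-Hochberg over 41091 probe sets). The code was tested on simulated data. Every adjusted p is from limma, differences are 10A/143B minus 468/143B, and only 3 arrays per group limit the precision. Lists used each gene's probe set with the highest mean. Deviations from the group means of same-numbered arrays correlated at 0.255, 0.162 and 0.106, each above 0.1, so the numbers were taken as pairing the arrays. Replicates 2 and 3 also correlated across numbers, at 0.133 and 0.139, so the pairing between these is not specific. Neither the fit to 6 arrays nor the averaged fit has a block, so neither uses this pairing. The blocked fit is an alternative. The members, lists and named genes (all members; of each list up to 4 with the largest difference past the threshold, plus chosen partners) were chosen with earlier results of these data known. Promoter windows came from RefSeq.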

Additional observations from a re-analysis of the deposited data

How the results depend on the processing

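Values of the 15 probe sets were recomputed under 17 settings, which gave 245 values, since some settings leave out dim or further probe sets. In 220 the direction and the side of the threshold were as reported, in 17 the call was lost, in 4 one was gained, and 4 turned direction. Those 4 were of probe sets that did not pass: S100A8 gave 0.0058 on 202917_s_at and 0.026 on 214370_at with replicates 2 and 3 only, S100A8 gave -0.22 to 0.0037 on 214370_at with 1 array left out, turning without 468/143B replicate 1, and S100B gave -0.0061 on 1561521_at after median centring. Averaging replicates 2 and 3 gave 3 instead of 8 S100 probe sets, 7341 instead of 12744 of all probe sets, 0 instead of 3 relatives, 14 instead of 26 partners, 15 instead of 25 EF-hand genes, and 7 instead of 16 and 7 instead of 12 chromosome neighbours. With 1 probe set per gene 7042 genes passed, as fewer features were tested, and the level filter left 1 relative. Leaving out 1 array gave 6 to 8 S100 probe sets, 9780 to 14289 of all probe sets, 0 to 2 relatives and 10 to 16 neighbours of S100A10 to S100A1. With the replicate block 9 S100 probe sets passed, the dim one of S100A13 being added, and no other call among the 15 changed. Of all probe sets 33.6% passed with that block. With replicate 1 as a batch term the same 9 passed, beside 15671 of all probe sets, or 38.1%. Without an intensity trend 6 passed, S100A2, S100A6 and S100A16 not among them. S100A8 and S100B had intensities between 1.00 and 21.9, where the offset of 16 compresses differences.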

Other observations

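Genes around the S100 network differed between their own probe sets. S100PBP, which encodes a nuclear protein that binds S100P, was lower in 10A/143B by 0.45 ± 0.11 (SE) on 222610_s_at, with intensities of 284.0, 215.3 and 235.6 against 362.0, 321.8 and 333.1 (adjusted p = 0.0171, but 0.141 with replicates 2 and 3 averaged). On 218370_s_at it was higher by 0.60 ± 0.11, with 252.5, 259.6 and 238.9 against 154.3, 183.5 and 143.0 (adjusted p = 0.00388, and 0.0367 averaged). AHNAK did not pass on its brightest probe set, yet on 220016_at it was lower by 1.10 ± 0.20, with mean intensities of 33.7 and 89.8 (adjusted p = 0.0032, and 0.0276 averaged). THEM4, beside S100A10 on chromosome 1, was lower on its brightest probe set and higher on the other two, by 0.79 ± 0.16 and 0.68 ± 0.15 (adjusted p = 0.0058 and 0.0094, but 0.0921 and 0.0804 averaged). These genes were singled out after their values were seen.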
